A study of Homo sapiens with 23 samples.

Results

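RTN4RL1, SPIN4, GP1BA, BACH2 and KCNA2 are 5 genes of the 21658 measured in ovarian cancer cell lines before and after they acquired resistance to prexasertib. They were picked from the 29 genes whose resistant mean lay at least 2-fold above the parental mean in all 4 lines. Their resistant-to-parental differences are therefore given as a description without a test. RNA sequencing covered 23 libraries of 8 groups, with 3 libraries a group except for parental OV-90, which had 2. The lines were OV-90, Kuramochi, OVSAHO and EFO-21, all established human ovarian cancer lines. Each was present as parental cells and as prexasertib-resistant cells raised by stepwise increases of the drug. Prexasertib inhibits the checkpoint kinase CHK1, which holds the cell cycle and protects replication forks when DNA is damaged. The labels call the samples of a group biological replicates and do not say whether a resistant line is 1 clone or whether its cells were harvested in drug. Each resistant line was compared with its own parent, and no other treatment, genotype or time separates the groups in the labels.

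The genes belong to unrelated families. RTN4RL1 is a receptor of the Nogo receptor family, which is held to the outer cell membrane by a lipid anchor and is known in neurons for restraining axon growth. SPIN4 is an X-linked member of the spindlins, nuclear proteins that bind methylated histone tails. GP1BA encodes the alpha chain of glycoprotein Ib, the platelet receptor that captures von Willebrand factor. BACH2 is a transcriptional repressor that pairs with small Maf proteins and is best known for steering B and T lymphocytes, while KCNA2 forms the pore of a voltage-gated potassium channel of axons. None of these genes is a textbook marker of ovarian epithelium.

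On GRCh37 the genes lie apart from each other. RTN4RL1 spans chr17:1837971-1928628 on the minus strand and GP1BA spans chr17:4835572-4838318 on the plus strand. SPIN4 spans chrX:62567107-62571211, BACH2 spans chr6:90636247-91006562 and KCNA2 spans chr1:111062459-111174096, all on the minus strand and all annotated as protein-coding. The values rest on 1 exon each for RTN4RL1 and SPIN4, on 2 exons for GP1BA and KCNA2 and on 8 exons for BACH2. The annotation places CHRNE across GP1BA on the opposite strand and LINC01278 across SPIN4 on the same strand, and the sources used here do not say how reads shared by such genes were counted.

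To show the promoters of the selected genes, the 250 bases before their transcription starts were read from RefSeq promoter sequences of GRCh38.p14, which matched 3 of the 5 genes, SPIN4, BACH2 and KCNA2. KCNA2 has an entry for each of 2 starts, named by rising coordinate, so on the minus strand the first start lies downstream of the other. The windows are chrX:63351333-63351582 for SPIN4, chr6:90296844-90297093 for BACH2, chr1:110606359-110606608 for the first KCNA2 start and chr1:110631441-110631690 for the other, all on the minus strand. They are given from 5′ to 3′ so that the windows can be set side by side, with capitals marking the GC box (GGGCGG, or CCGCCC read on the other strand) and the CCAAT box (CCAAT, or ATTGG on the other strand).
SPIN4: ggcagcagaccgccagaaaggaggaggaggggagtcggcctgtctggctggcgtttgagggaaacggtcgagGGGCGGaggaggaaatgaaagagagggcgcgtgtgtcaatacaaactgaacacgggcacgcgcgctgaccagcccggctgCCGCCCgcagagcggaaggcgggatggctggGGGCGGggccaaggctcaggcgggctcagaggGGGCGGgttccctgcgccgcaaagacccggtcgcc
BACH2: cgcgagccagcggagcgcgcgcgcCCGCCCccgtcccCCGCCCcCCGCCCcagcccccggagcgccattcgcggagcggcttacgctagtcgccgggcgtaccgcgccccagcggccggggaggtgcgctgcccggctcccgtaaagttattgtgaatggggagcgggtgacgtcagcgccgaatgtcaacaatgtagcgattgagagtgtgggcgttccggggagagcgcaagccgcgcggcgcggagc
KCNA2 first start: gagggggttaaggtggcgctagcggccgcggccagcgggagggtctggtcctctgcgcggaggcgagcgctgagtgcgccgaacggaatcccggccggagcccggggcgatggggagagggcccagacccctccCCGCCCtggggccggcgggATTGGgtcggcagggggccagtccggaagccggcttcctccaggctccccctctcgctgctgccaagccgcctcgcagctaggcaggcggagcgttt
KCNA2 other start: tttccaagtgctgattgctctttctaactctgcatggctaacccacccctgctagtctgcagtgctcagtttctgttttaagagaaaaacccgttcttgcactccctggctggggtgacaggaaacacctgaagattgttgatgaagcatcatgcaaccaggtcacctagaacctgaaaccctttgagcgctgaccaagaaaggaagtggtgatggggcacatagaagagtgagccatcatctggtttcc

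GC made up 69.2% of the SPIN4 window, 73.6% of the BACH2 window and 74.8% of the window at the first KCNA2 start, against a median of 58% over 35116 promoter windows of the same length. At the other KCNA2 start it was 48.8%. The SPIN4 window held 4 GC boxes, the BACH2 window 3 and the first KCNA2 window 1, a motif present in 42.6% of all windows. A CCAAT box, present in 32.0% of all windows, appeared once, at the first KCNA2 start. Searches on both strands for TGACTCA, the core bound by AP-1 and BACH proteins (4.20% of all windows), for the E2F motif TTTGGCG (1.59%) and for the TATA box TATAAA (10.7%) found no match in the 4 windows. None of the motifs searched overlap one another in these windows.

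RTN4RL1 showed the most even rise of the 5 genes. In OV-90 its log2 value was 9.68 and 9.54 in the parental libraries and 11.65, 11.67 and 11.64 in the resistant libraries, a difference of 2.05 ± 0.06 (limma standard error). In Kuramochi the parental libraries stood at 2.11, 2.39 and 1.97 and the resistant ones at 4.08, 4.35 and 4.5, a difference of 2.15 ± 0.22. Resistant libraries were thus higher than every parental library in both lines, although the parental means of these lines lay 7.45 apart. In OVSAHO the parental values were 2.79, 3.92 and 4.22 and the resistant values 6.75, 6.45 and 5.67, which gave a difference of 2.65 ± 0.45. In EFO-21 the parental values of 4.59, 2.91 and 4.31 faced resistant values of 6.50, 5.82 and 5.80, a difference of 2.10 ± 0.47. One parental library in each of these lines, library 7 of OVSAHO and library 11 of EFO-21, lay well below its neighbours, and the groups did not overlap with or without it. As a ratio the differences ran from 4.13-fold in OV-90 to 6.26-fold in OVSAHO.

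SPIN4 was expressed in every library and rose most in OV-90, the line with the lowest parental level. Its parental values there were 7.13 and 8.11 against resistant values of 10.20, 9.97 and 10.42, a difference of 2.58 ± 0.32. In Kuramochi the parental libraries gave 10.62, 9.56 and 9.51 and the resistant libraries 11.46, 11.74 and 11.18, a difference of 1.56 ± 0.32. Parental library 4 of Kuramochi sat closer to the resistant mean than to the other parental libraries. In OVSAHO values of 10.28, 10.52 and 10.80 rose to 11.57, 11.69 and 11.77, a difference of 1.14 ± 0.13. In EFO-21 values of 10.24, 9.94 and 10.03 rose to 11.70, 11.50 and 11.42, a difference of 1.47 ± 0.10. The 3 lines other than OV-90 therefore began and ended at similar levels, and no resistant library overlapped a parental one. LINC01278, the long noncoding RNA that overlaps SPIN4 on the same strand, also rose in Kuramochi, by 2.05 (limma adjusted p = 7.5e-05). Its differences in OV-90, OVSAHO and EFO-21 were 0.50, 0.11 and 0.72, all under 2-fold. The part of LINC01278 reads in the SPIN4 values was not tested.

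GP1BA rose most in Kuramochi and least in OVSAHO. The Kuramochi parental libraries spread widely, at 3.02, 4.44 and 2.53, below resistant values of 6.14, 5.68 and 5.42, a difference of 2.42 ± 0.51. In OVSAHO values of 2.03, 2.82 and 2.67 faced 3.31, 3.88 and 3.54, a difference of 1.07 ± 0.28. The gap between the highest parental and the lowest resistant library was 0.50 in OVSAHO and 0.99 in Kuramochi. OV-90 gave 4.81 and 4.96 in parental cells and 6.13, 6.16 and 6.29 in resistant cells, a difference of 1.31 ± 0.14. EFO-21, the line with the highest level, gave 6.09, 5.22 and 5.53 against 7.14, 7.16 and 7.09, a difference of 1.51 ± 0.22. In these lines the resistant libraries were tightly grouped and lay clear of the parental ones. The OVSAHO difference fell under 2-fold without parental library 7 (0.83) or resistant library 20 (0.92). CHRNE, the acetylcholine receptor subunit gene on the opposite strand, did not pass the limits in any line, with differences of -0.80, 0.75, -0.20 and 0.66 in OV-90, Kuramochi, OVSAHO and EFO-21.

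BACH2 had low to middling values throughout. Parental OV-90 libraries stood at 2.85 and 2.78 and resistant ones at 4.83, 4.39 and 4.75, a difference of 1.84 ± 0.23. In OVSAHO values of 3.62, 3.23 and 3.40 rose to 4.89, 4.59 and 4.86, a difference of 1.36 ± 0.17. Both lines showed closely grouped libraries on either side of a clear gap. Kuramochi, the line with the highest BACH2 level, gave 4.86, 4.14 and 4.68 against 5.69, 5.56 and 5.54, a difference of 1.03 ± 0.22. Without parental library 5 the Kuramochi difference was 0.83, and without resistant library 16 it was 0.99. In EFO-21 the parental values were 1.53, 2.37 and 0.98, of which 2 lay within the lowest 10% of their library, and the resistant values were 3.17, 2.91 and 2.92, a difference of 1.38 ± 0.36. The fold for EFO-21 thus rests on a parental level near the bottom of the scale.

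KCNA2 had the largest difference of the 5 genes in OV-90 and in EFO-21, and much of its parental signal lay near the bottom of the scale. In OV-90 it went from 3.69 and 3.61 to 7.20, 6.96 and 7.20, a difference of 3.47 ± 0.15 or 11.1-fold. In EFO-21 it went from 1.42, 2.35 and 2.11 to 5.46, 4.74 and 4.90, a difference of 3.07 ± 0.32 or 8.43-fold. The lowest resistant library lay 3.27 above the highest parental library in OV-90 and 2.39 above it in EFO-21. The OVSAHO libraries gave 2.03, 1.26 and 1.34 against 3.24, 2.87 and 3.36, a difference of 1.61 ± 0.27. In Kuramochi the values were 1.1, 0.91 and 0.03 against 2.16, 1.57 and 2.31, a difference of 1.33 ± 0.35. All 3 parental Kuramochi libraries and resistant library 17 were within the lowest 10% of their library, as were 2 parental libraries of OVSAHO and 1 of EFO-21. The Kuramochi value is therefore a difference between low values and not a measured fold change.

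**Figure D1:**
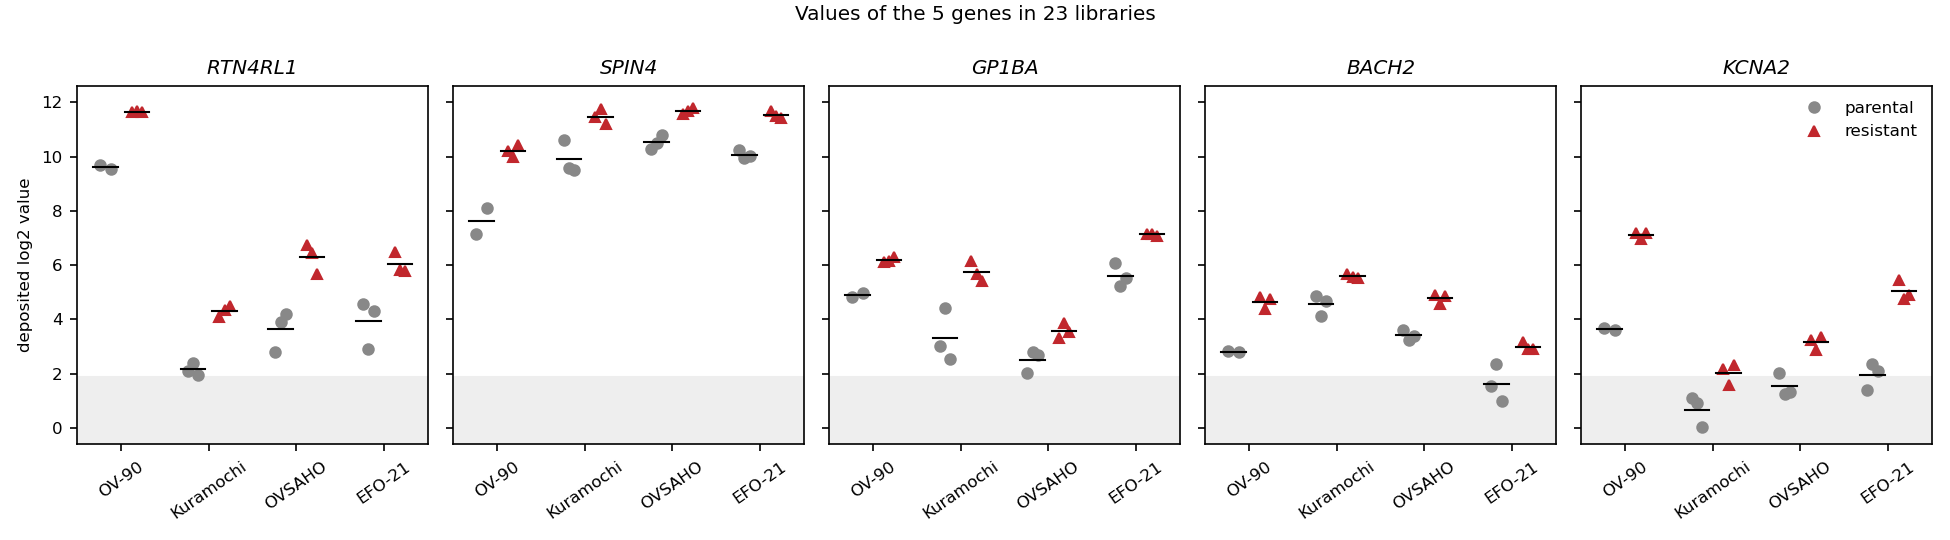
Deposited log2 values of the 5 genes (vertical axis) in parental (grey circles) and resistant (red triangles) libraries of the 4 lines, with black bars for group means and grey shading up to the highest 10th percentile of any library (1.87). In all 20 pairs of groups the triangles lie above the circles, and the height of each pair differs from line to line by up to 7.45 (RTN4RL1, parental).

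All 5 genes met a limma adjusted p under 0.05 and a 2-fold rise in each of the 4 lines with all libraries included. With 1 library of a line left out RTN4RL1 still met both limits in every line, whereas the other 4 genes missed them in some cases. SPIN4, GP1BA and BACH2 missed them in OV-90 without resistant library 13, 14 or 15. GP1BA missed them in OVSAHO without library 7, 9, 20 or 21, and BACH2 in EFO-21 without library 10, 22, 23 or 24. In Kuramochi BACH2 missed them without library 5 or 16 and KCNA2 without library 16 or 18. With all libraries included, 9.50% of all genes rose by both limits in OV-90, 11.8% in Kuramochi, 3.93% in OVSAHO and 7.11% in EFO-21. In the same order of lines, 6.56%, 10.6%, 3.83% and 7.15% fell by the same limits. Nothing follows from the count for the 5 genes, which were picked on this contrast. Limits met or missed with a library left out describe the values and are no test of these genes either. Their resistant libraries all lay above their parental libraries in 5 of 5 genes in each line, as they did for 32.0% of all genes in OV-90, 28.7% in Kuramochi, 24.6% in OVSAHO and 30.4% in EFO-21. By size of rise the genes ranked between place 40 (KCNA2 in OV-90) and place 2804 (BACH2 in Kuramochi) of 21658. In these bulk libraries, more RNA per cell and a larger share of expressing cells cannot be told apart.

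**Figure D2:**
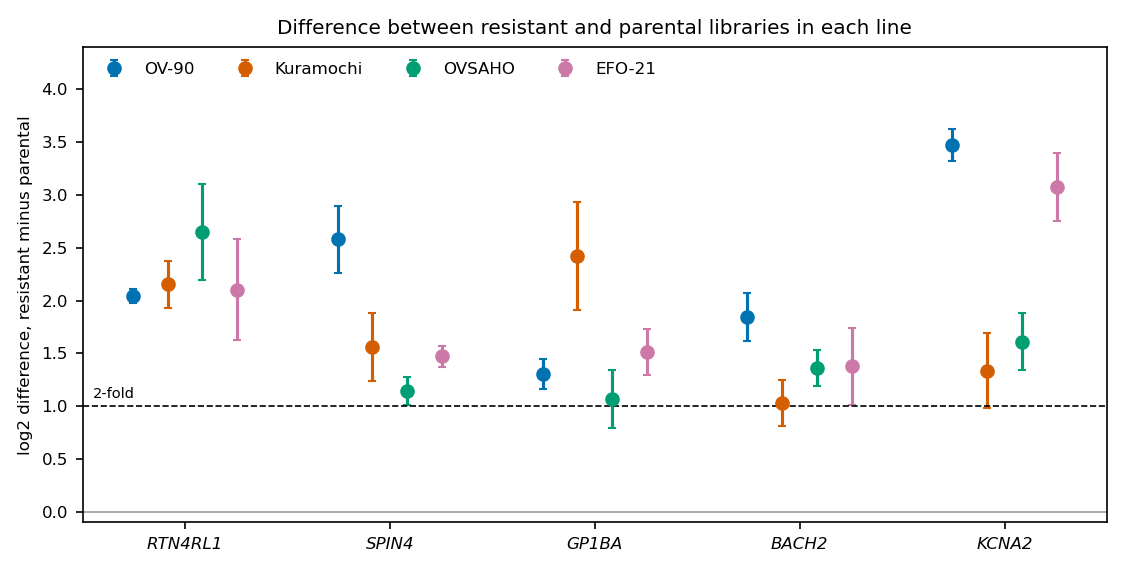
Difference of the group means, resistant minus parental, on the log2 scale (vertical axis) for each gene and line, with limma standard errors as bars and a dashed line at 2-fold. RTN4RL1 is the only one of the 5 with all lines at 2.05 or more, and KCNA2 runs from 1.33 in Kuramochi to 3.47 in OV-90.

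The selection was a short one. Of all genes, 29 were at least 2-fold higher in all 4 lines and 33 at least 2-fold lower, and 11 and 13 of these also met the adjusted p in every line. Ranked by the smallest of the 4 differences, RTN4RL1 came first at 2.05, KCNA2 in place 7 at 1.33, SPIN4 in place 12 at 1.14, GP1BA in place 20 at 1.07 and BACH2 in place 24 at 1.03. The other 6 genes that met the adjusted p in all lines were ZNF98 (smallest difference 1.62), RAB39A (1.59), SLC19A3 (1.46), CLDN11 (1.26), OAS3 (1.14) and FN1 (1.07). SLC19A3 is a thiamine transporter, CLDN11 a tight junction protein, OAS3 an interferon-induced sensor of double-stranded RNA and FN1 fibronectin. Just inside the 2-fold limit were MAGEC1 and ADRA1D, whose smallest differences were both 1.0, and just outside it were TSIX (0.96), GOLGA8CP (0.93) and TSSK1B (0.93). Without 1 of the resistant OV-90 libraries 13, 14 and 15, the 11 genes became 2, 4 and 3, of which 2 were among the 5 genes in each case, and without the other libraries they numbered 8 to 15.

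**Figure D3:**
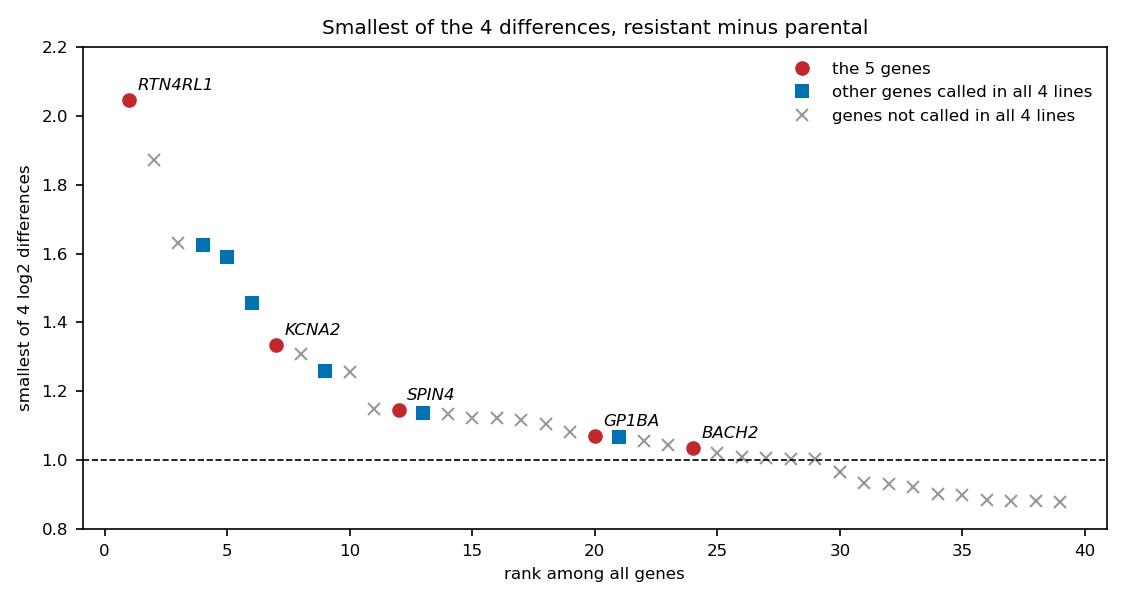
Smallest of the 4 log2 differences of a gene (vertical axis) against its rank among all genes, for the 29 genes at or above 2-fold (dashed line) and the 10 genes below it. The 5 genes (red) run from rank 1 at 2.05 to rank 24 at 1.03, and the 6 other genes called in all lines are blue squares.

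Levels between lines were not part of the selection and were tested. In parental cells RTN4RL1 was highest in OV-90 (9.61 ± 0.09, SD, n = 2), then EFO-21 (3.94 ± 0.90, n = 3), OVSAHO (3.64 ± 0.76, n = 3) and Kuramochi (2.16 ± 0.22, n = 3). OV-90 exceeded EFO-21 by 5.67 (limma adjusted p = 4.71e-06) and OVSAHO exceeded Kuramochi by 1.48 (limma adjusted p = 0.0172), whereas EFO-21 and OVSAHO were not shown to differ (0.29, limma adjusted p = 0.591). The step from OVSAHO to Kuramochi was lost without parental Kuramochi library 6 or parental OVSAHO library 8 or 9. Resistance left OV-90 far above the others, at 11.65 ± 0.01 against 6.29 ± 0.55 in OVSAHO, 6.04 ± 0.40 in EFO-21 and 4.31 ± 0.21 in Kuramochi (n = 3 each). Resistant EFO-21 exceeded resistant Kuramochi by 1.73 (limma adjusted p = 7.05e-05), and resistant OVSAHO and EFO-21 differed by 0.25 (limma adjusted p = 0.387), a gap that passed the threshold without resistant OVSAHO library 21. The range between parental lines, 7.45, was larger than any difference seen with resistance, so 3 of 12 pairs of lines had a resistant mean below the parental mean of another line.

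SPIN4 separated OV-90 from the other lines in both states. Its parental level was 7.62 ± 0.69 (SD, n = 2) in OV-90, 2.28 below the next line, Kuramochi (limma adjusted p = 0.000235). OVSAHO, EFO-21 and Kuramochi followed each other at 10.53, 10.07 and 9.90 with neighbours not shown to differ (limma adjusted p = 0.215 and 0.657). In resistant cells OV-90 stayed 1.26 below Kuramochi (limma adjusted p = 6.79e-06), and the other lines stood at 11.68, 11.54 and 11.46 in the same order (limma adjusted p = 0.385 and 0.632). The spread between lines was 2.92 in parental and 1.48 in resistant cells.

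GP1BA was highest in EFO-21 and lowest in OVSAHO in both states. Among parental lines only the step from OV-90 down to Kuramochi, 1.56, passed the threshold between neighbours (limma adjusted p = 0.0192), and it was lost without parental OV-90 library 2 or 3 or parental Kuramochi library 4 or 6. EFO-21 and OV-90 were separated by 0.73 (limma adjusted p = 0.219), and Kuramochi and OVSAHO by 0.82 (limma adjusted p = 0.14), a step that passed in a fit of all 23 libraries and, at 1.22, without parental Kuramochi library 6. Among resistant lines all neighbours differed, EFO-21 from OV-90 by 0.93 (limma adjusted p = 0.000516), OV-90 from Kuramochi by 0.45 (limma adjusted p = 0.0404) and Kuramochi from OVSAHO by 2.17 (limma adjusted p = 5.45e-07). The OV-90 to Kuramochi step was lost without any 1 of 8 of the 12 resistant libraries (13, 14, 15, 17, 18, 22, 23 and 24) so that order is not firm.

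BACH2 kept the same order in both states, with Kuramochi first, then OVSAHO, OV-90 and EFO-21. Kuramochi exceeded OVSAHO by 1.15 in parental (limma adjusted p = 0.0151) and 0.82 in resistant cells (limma adjusted p = 0.000519), and OV-90 exceeded EFO-21 by 1.19 (limma adjusted p = 0.0184) and 1.65 (limma adjusted p = 1.28e-06). OVSAHO and OV-90 were not shown to differ in either state (limma adjusted p = 0.19 and 0.497). The parental step from Kuramochi to OVSAHO was lost without parental Kuramochi library 4 or parental OVSAHO library 8, and that from OV-90 to EFO-21 without parental library 2 or 3 of OV-90 or library 12 of EFO-21. KCNA2 followed the order OV-90, EFO-21, OVSAHO and Kuramochi in both states. Parental OV-90 exceeded EFO-21 by 1.69 (limma adjusted p = 0.00486), while the lower steps of 0.41 and 0.87 did not pass (limma adjusted p = 0.354 and 0.0713). The step of 0.87 passed in a fit of all 23 libraries. After resistance every step passed, at 2.09, 1.88 and 1.14 (limma adjusted p = 7.94e-06, 2.07e-05 and 0.00113).

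Over the 5 genes, 21 of 30 pairs of parental lines and 25 of 30 pairs of resistant lines differed. Of all genes, 69.0% differed between parental OV-90 and Kuramochi, 70.0% between OV-90 and OVSAHO, 71.9% between OV-90 and EFO-21, 62.5% between Kuramochi and OVSAHO, 67.1% between Kuramochi and EFO-21 and 69.0% between OVSAHO and EFO-21. For resistant cells the shares were 76.4%, 77.0%, 79.5%, 73.0%, 75.9% and 77.4% in the same order of pairs. The counts for the 5 genes are near these shares and are no result about them.

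Within groups the 5 genes were noisier than most. The pooled SD between libraries of a group was 0.51 for RTN4RL1, 0.34 for SPIN4, 0.46 for GP1BA, 0.32 for BACH2 and 0.39 for KCNA2, larger than that of 83.0%, 70.5%, 79.9%, 68.3% and 74.6% of all genes. Over the 23 libraries, which share lines and resistance, Pearson's r between the 10 pairs of genes ran from -0.25 (RTN4RL1 with SPIN4) to 0.88 (RTN4RL1 with KCNA2). Both genes of the closest pair are highest in OV-90. After the mean of each group was taken away, r ran from -0.56 (RTN4RL1 with BACH2) to 0.42 (RTN4RL1 with GP1BA).

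The genes whose log2 values followed each gene most closely over the 23 libraries differed from gene to gene. MANSC1 (r = 0.97), GOLM1 (0.96), PDX1 (0.95), ERP29 (0.95) and SGSM1 (0.95) were closest to RTN4RL1. FAM199X (0.95), OGT (0.94), ANKRD36BP1 (0.92), PDCD6IP (0.92) and FGD5-AS1 (0.92) were closest to SPIN4, of which OGT is the enzyme that adds sugar to nuclear proteins. TERF2 (0.94), a protein of telomeres, led for GP1BA, followed by KMT5AP1 (0.94), TMEM33 (0.94), TRIM34 (0.93) and SLC16A7 (0.93). For BACH2 they included ZDHHC11 (0.93), NISCH (0.93), UBTF (0.92) and HSDL2 (0.92), and for KCNA2 they were AP3M2 (0.94), HACD3 (0.92), FANCA (0.92), ZC3H18 (0.92) and KLF3 (0.90). No gene named here appeared for more than 1 of the 5.

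With the centre of each line taken away, so that the libraries share the step from parental to resistant, other genes came first. KLF11 (0.92), ZNF704 (0.91), NFIC (0.91), MBOAT2 (0.91) and UST (0.90) followed RTN4RL1. FLNA (0.98), NSD2 (0.98), ACTN1 (0.97), ARHGEF2 (0.97) and RPA1 (0.97) followed SPIN4, of which RPA1 binds single-stranded DNA at replication forks and FLNA and ACTN1 crosslink actin. RRAS2P1 (0.92), GNB5 (0.91), LIMCH1 (0.91), SLC2A10 (0.91) and TRIM6-TRIM34 (0.91) followed GP1BA. BACH2 and KCNA2 had FGFR3 (0.92 and 0.93) and ADCY9 (0.92 and 0.93) in common. RPS6KA5 (0.93), SUGT1P4-STRA6LP-CCDC180 (0.92) and KLF11 (0.92) completed the list for BACH2, and FBXW8 (0.94), MYC (0.93) and ITM2A (0.92) that for KCNA2. These values are a description of likeness over 23 libraries that share 4 lines and 2 states.

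Related genes were examined to see whether partners of the 5 genes moved with them. Lists of receptors, ligands, subunits, partners and targets held 69 genes, of which 61 were measured, and a gene was called changed at a limma adjusted p under 0.05 and at least 2-fold. In OV-90, 9 of 61 rose (14.8%) and 1 fell, in Kuramochi 12 rose (19.7%) and 7 fell, in OVSAHO 1 rose (1.64%) and 3 fell, and in EFO-21 5 rose (8.20%) and 6 fell. The median difference of the 61 genes was 0.37, 0.06, 0.20 and 0.07 in these lines, against -0.06, -0.02, 0.00 and 0.01 over all genes. Changed in at least 1 line were 36 of the 61 (59.0%), against 43.6% of all genes. Of the 61, 0 rose in 3 or 4 lines, as 0.619% of all genes did, a share too small to expect any in a list of this length. At unadjusted p under 0.05 and 2-fold the counts were 9, 12, 1 and 5 higher and 3, 7, 5 and 7 lower. The difference between resistant and parental cells itself differed between lines for 48 of the 61 genes (limma interaction), next to 75.1% of all genes. The OV-90 calls depended on having all its libraries, since 0 of the 61 rose or fell by these limits without resistant library 13, 14 or 15 (8, 10 and 9 rose and 1, 2 and 1 fell at unadjusted p under 0.05), 4 rose without parental library 2 and 17 without parental library 3.

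**Figure D4:**
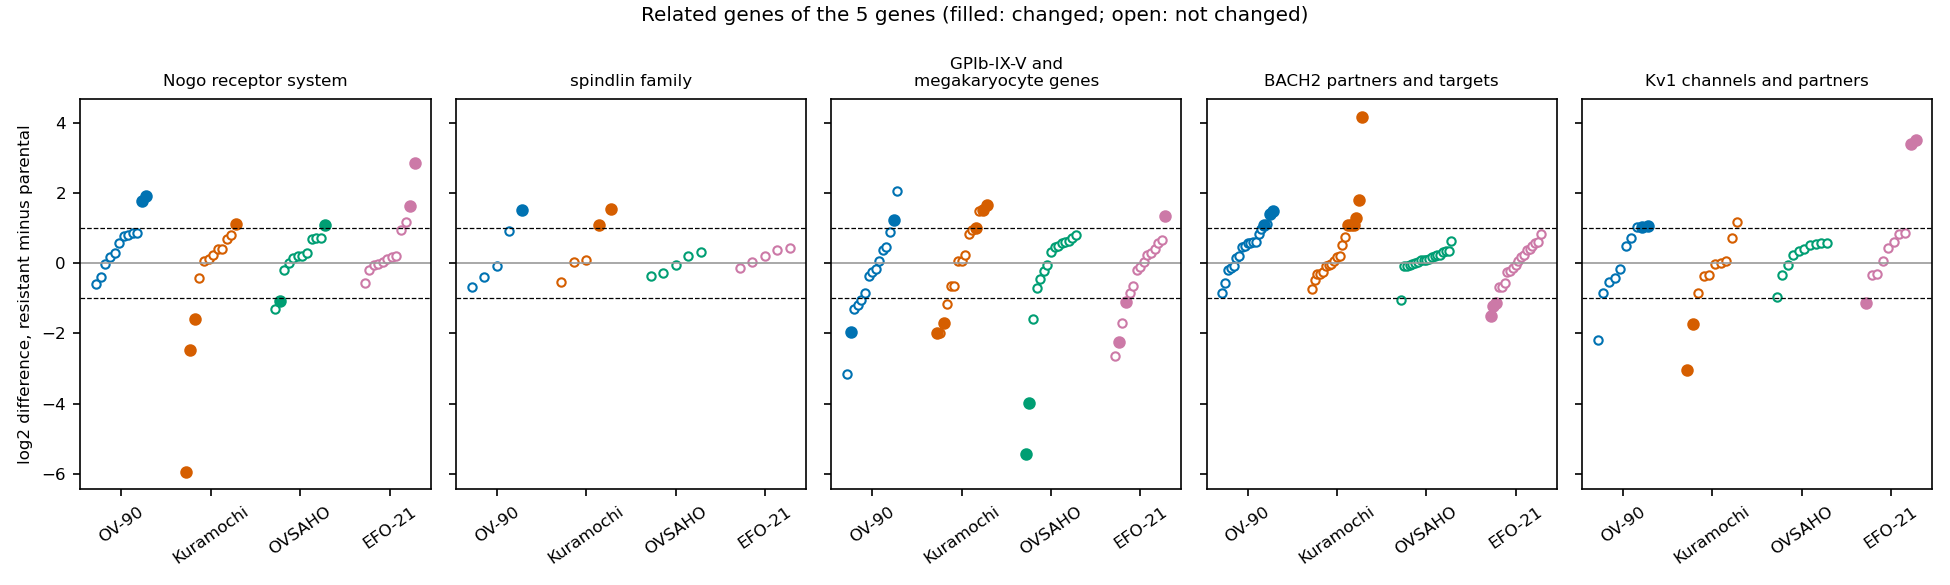
Log2 difference, resistant minus parental (vertical axis), of the 61 related genes by list and line, each circle a gene, filled where the limma adjusted p was under 0.05 and the change at least 2-fold (dashed lines). Filled circles lie on both sides of zero in most lists, and the lowest is MAG in Kuramochi at -5.93.

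The Nogo receptor list held 12 genes. The paralogue RTN4RL2 differed by 0.81 in OV-90, 0.81 in Kuramochi, 0.71 in OVSAHO and 0.18 in EFO-21, below 2-fold in each, and in EFO-21 5 of its 6 libraries were within the lowest 10%. RTN4R, the founding Nogo receptor, fell by 1.58 in Kuramochi (limma adjusted p = 0.00769) and differed by -0.40, 0.00 and 0.95 in OV-90, OVSAHO and EFO-21. Among ligands, MAG of myelin fell by 5.93 in Kuramochi, from 7.36 ± 0.28 to 1.43 ± 0.92 (SD, n = 3 each; limma adjusted p = 0.000182), and OMG rose by 2.84 in EFO-21 from a level at the bottom (limma adjusted p = 0.00408). The co-receptor LINGO1 fell by 2.48 in Kuramochi (limma adjusted p = 0.000659), while PTPRS, a receptor for the same proteoglycans, rose by 1.91 in OV-90 (limma adjusted p = 0.00908). NGFR of the same list rose by 1.12 in Kuramochi and 1.63 in EFO-21 (limma adjusted p = 0.00085 and 0.00282). ROCK2 rose by 1.76 in OV-90 and 1.08 in OVSAHO (limma adjusted p = 0.0453 and 0.00253). The ROCK2 calls were lost without resistant library 13, 14 or 15 of OV-90 and without library 7 of OVSAHO. Counts were 2 higher and 0 lower in OV-90, 1 and 3 in Kuramochi, 1 and 1 in OVSAHO and 2 and 0 in EFO-21. RTN4, the ligand that names the family, stayed under 2-fold in every line, at 0.17, 0.69, 0.21 and -0.19.

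Of the 5 spindlin genes measured, 3 rose in 1 line each and 0 fell. SPIN1, the best studied reader of methylated histones in the family, rose by 1.52 in OV-90 (limma adjusted p = 0.0323) and differed by 0.09, 0.32 and 0.38 in Kuramochi, OVSAHO and EFO-21. SPIN2A rose by 1.54 (limma adjusted p = 0.0246) and SPIN2B by 1.08 (limma adjusted p = 0.00522) in Kuramochi, a near-identical pair whose reads could be split between them. SPIN3 differed by 0.90, 0.04, -0.05 and 0.21. The SPIN2A call was lost without library 5, 6, 17 or 18 of Kuramochi and the SPIN2B call without library 18. In OVSAHO and EFO-21, 0 of the 5 passed the limits, at unadjusted p under 0.05 as well.

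In the list of the platelet glycoprotein complex and megakaryocyte genes, 15 of 17 were measured. GP1BB, the chain that joins GP1BA in the receptor, differed by -0.37, 0.22, 0.71 and -0.19 and passed in no line (limma adjusted p = 0.188 or more). GP5 rose by 1.34 in EFO-21 (limma adjusted p = 0.0333), a call lost without library 10, 12, 22 or 24, and GP9 was not analysed here. The ligands moved down where they moved, VWF by -2.0 in Kuramochi (limma adjusted p = 0.000464) and SELP, the adhesion receptor P-selectin, by -2.26 in EFO-21 (limma adjusted p = 1.79e-05). The platelet chemokines PPBP and PF4 fell by 5.43 (limma adjusted p = 0.000124) and 3.98 (limma adjusted p = 0.00343) in OVSAHO, to resistant libraries that were all within the lowest 10%. Higher and lower counts were 1 and 1 in OV-90, 3 and 2 in Kuramochi, 0 and 2 in OVSAHO and 1 and 2 in EFO-21.

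The BACH2 list held 19 genes. BACH1, the paralogue, rose by 1.49 in OV-90 (limma adjusted p = 0.0113) and differed by -0.75, 0.34 and 0.18 in Kuramochi, OVSAHO and EFO-21. PAX5, a B cell factor, rose by 4.17 in Kuramochi from parental libraries at the bottom (limma adjusted p = 0.000236) and fell by 1.51 in EFO-21 (limma adjusted p = 0.017). IRF4, which acts in the same cells, rose by 1.81 in Kuramochi (limma adjusted p = 0.0117). In Kuramochi HMOX1, the heme-degrading enzyme whose gene BACH proteins are known to repress, and the oxidative stress genes NQO1 and TXNRD1 were among the 6 that rose, by 1.29, 1.08 and 1.09. HMOX1 differed by -0.86, 0.35 and -0.67 in OV-90, OVSAHO and EFO-21, and NQO1 by 0.20, 0.22 and -0.21. TXNRD1 also rose in OV-90, by 1.39 (limma adjusted p = 0.0385), and differed by 0.04 in OVSAHO and -0.56 in EFO-21. PRDM1, the plasma cell factor that BACH2 represses in lymphocytes, passed the limits in no line, with differences of 0.57, -0.03, -1.05 and 0.59. The NQO1 call was lost without library 4. Counts were 3 higher in OV-90, 6 higher in Kuramochi and 3 lower in EFO-21, with 0 changed in OVSAHO, also at unadjusted p under 0.05.

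Of the 16 potassium channel genes, 10 were measured, and KCNA1 and KCNA3 were not analysed here. KCNA5 and KCNA4 are pore subunits that can assemble with KCNA2. In EFO-21 both were listed at 0 in every parental library and stood at 3.49 ± 0.26 and 3.38 ± 0.50 (SD, n = 3 each) in resistant libraries (limma adjusted p = 5.26e-05 and 0.000247). KCNA5 fell by 3.03 in Kuramochi (limma adjusted p = 0.00649), where KCNA4 was at the bottom in all 6 libraries. ADAM22, a partner of these channels, fell by 1.74 in Kuramochi (limma adjusted p = 0.00474). Neither subunit rose in another line, and the 2 genes of the list that rose in OV-90 were the accessory subunit KCNAB3 and the scaffold DLG1. Counts were 2 higher in OV-90, 2 lower in Kuramochi, 0 changed in OVSAHO (0 at unadjusted p under 0.05) and 2 higher and 1 lower in EFO-21.

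Within 500 kb of the 5 genes lay 94 other measured genes, 26 near RTN4RL1, 4 near SPIN4, 41 near GP1BA, 6 near BACH2 and 17 near KCNA2. Of these 6 rose and 2 fell in OV-90, 12 and 9 in Kuramochi, 3 and 2 in OVSAHO, and 4 and 4 in EFO-21, by the same limits as above. As shares these were 6.38% and 2.13%, 12.8% and 9.57%, 3.19% and 2.13%, and 4.26% and 4.26%, near or below the shares of all genes given above, and they are no result about the neighbourhoods. By number most rises lay near RTN4RL1 in Kuramochi. There 8 of 26 neighbours rose (30.8%, against 11.8% of all genes) and 1 fell (3.85%, against 10.6%). The median difference of these 26 was 0.69, against -0.02 over all genes. Near SPIN4 2 of 4 rose in the same line. Within 200 kb of RTN4RL1 1 of 9 rose and 1 fell in Kuramochi, with a median difference of 0.69. Whether a change of the whole region has a part in the RTN4RL1 value was not tested. SERPINF2, at 2.39, had the largest rise of the 26 in Kuramochi (limma adjusted p = 0.0035). In OV-90, OVSAHO and EFO-21 3, 1 and 1 of the same 26 rose (11.5%, 3.85% and 3.85%). Genes that passed in the same direction in 2 or more lines were few. CXCL16, a chemokine gene 192 kb upstream of GP1BA, fell by 1.27 in Kuramochi, 1.65 in OVSAHO and 1.16 in EFO-21 (limma adjusted p = 0.000262, 0.000401 and 0.00116). SLC6A17, a transporter gene 318 kb from KCNA2, rose by 2.74 in Kuramochi and 2.57 in OVSAHO (limma adjusted p = 0.000386 and 0.006). SERPINF1 near RTN4RL1 rose by 1.28 in OVSAHO and 1.29 in EFO-21 and fell by 1.62 in Kuramochi. ZNF232-AS1 near GP1BA fell by 1.3 in OV-90 and 1.07 in EFO-21, and RBM15-AS1 near KCNA2 fell by 1.06 in OV-90 and 1.7 in Kuramochi. By these limits no gene of the 94 rose in more than 2 lines. At a limma adjusted p under 0.05 without the 2-fold limit, some neighbours were higher in all 4. RPA1 near RTN4RL1 differed by 0.70, 0.52, 0.47 and 0.43 in OV-90, Kuramochi, OVSAHO and EFO-21, and SMYD4 by 0.67, 0.69, 0.54 and 0.45. SGSM2, MYO1C and PRPF8 near RTN4RL1 and MINK1 near GP1BA also passed upward in all 4 lines. No neighbour passed downward in all 4 by that p.

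**Figure D5:**
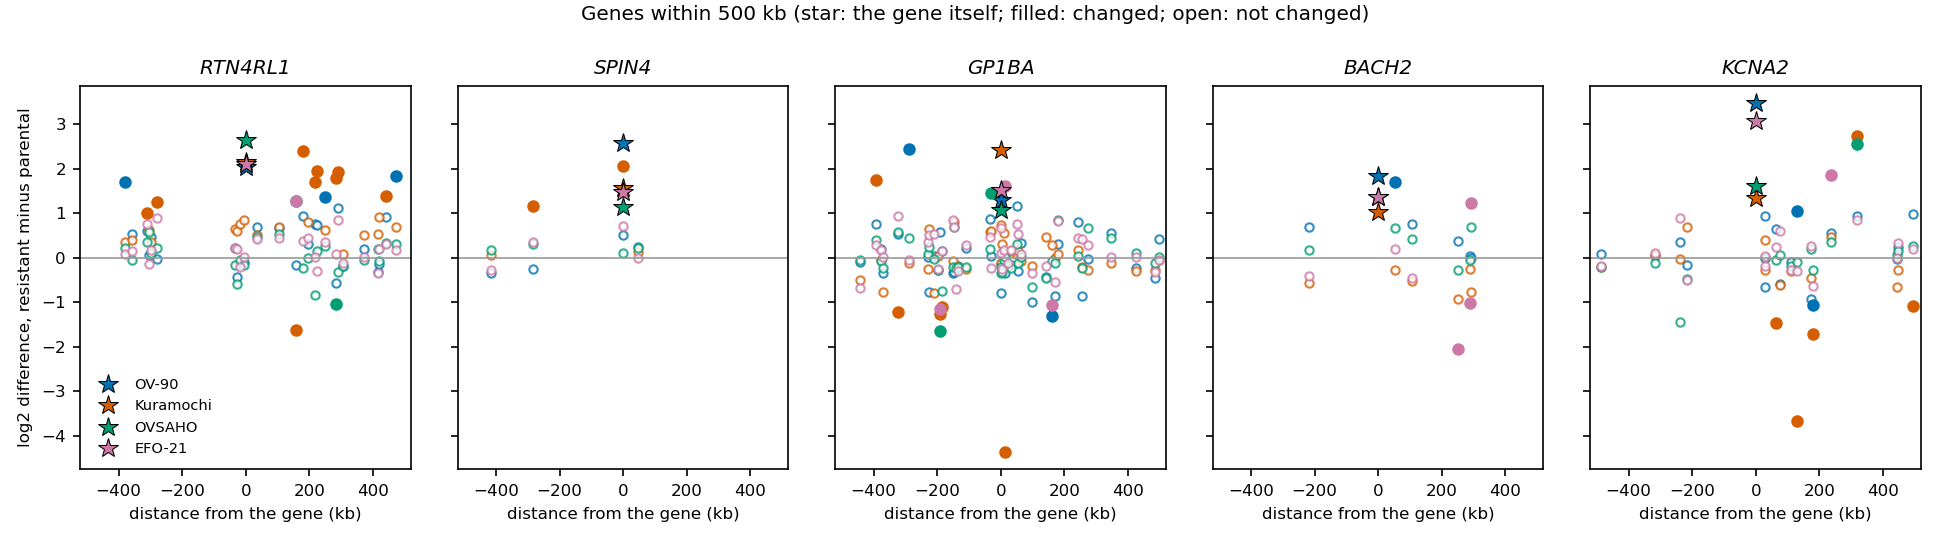
Log2 difference, resistant minus parental (vertical axis), of genes within 500 kb against their distance in kb from the edge of each of the 5 genes (negative is upstream), with stars for the gene itself and filled circles for genes past the limits. The stars stand above most neighbours, and near RTN4RL1 the filled Kuramochi circles lie between 1.0 and 2.39 apart from 1 at -1.62.

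The labelled cell type was checked against 8 epithelial and Müllerian markers. All 8 were above the lowest 10% in every parental Kuramochi and OVSAHO library, 7 in EFO-21 and 4 in OV-90, where the ovarian markers PAX8, WT1, MUC16 and MSLN were at 2.10 or lower and the epithelial EPCAM, KRT8 and KRT18 were high. With resistance 4 of the 8 fell and 0 rose in Kuramochi, and 3 fell and 0 rose in OVSAHO, including EPCAM by 3.78 and 3.01. In OV-90 0 of the 8 changed, and in EFO-21 0 fell and MSLN rose by 2.10. The log2 of the summed markers was lower in resistant than in parental libraries of every line, without overlap. It spanned 12.9 to 13.2 in parental and 12 to 12.1 in resistant Kuramochi, and 12.56 to 12.62 and 11.57 to 11.65 in OVSAHO. The shifts were smaller in OV-90, from 13.54 to 13.60 down to 13.24 to 13.31, and in EFO-21, from 12.57 to 12.62 down to 12.25 to 12.31. Platelet markers, of which 6 of 7 were measured, summed to 6.31 to 7.02 in parental and 8.82 to 9.26 in resistant Kuramochi, where TREML1 rose by 3.29, and to 6.68 to 7.08 and 5.03 to 5.42 in OVSAHO. TREML1 alone averaged 8.83 in resistant Kuramochi and makes up most of that sum. In OV-90 and EFO-21 the platelet sums overlapped between states. By calls 1 platelet marker rose and 0 fell in Kuramochi, 0 and 2 in OVSAHO, 1 and 1 in EFO-21, and 0 and 0 in OV-90. B cell and leukocyte markers, 5 of 6 measured, summed to 4.16 to 5.26 in parental and 3.31 to 3.68 in resistant Kuramochi, with 2 and 0 markers above the lowest 10% in all libraries. In OVSAHO the sums were 5.21 to 6.04 and 4.53 to 4.97. They overlapped in OV-90 (7.28 to 7.79 and 7.56 to 7.74) and EFO-21 (7.05 to 7.32 and 7.02 to 7.26). By calls 0 rose and 1 fell in Kuramochi, 1 and 2 in OVSAHO, and 0 and 0 in OV-90 and EFO-21. Neuron markers changed in both directions, with 3 higher and 1 lower in Kuramochi, 1 and 1 in OVSAHO, 0 and 2 in OV-90 and 0 and 0 in EFO-21, although KCNA2 and RTN4RL1 were higher in all 4. Stromal and endothelial markers rose and fell as well, with 3 higher and 2 lower in Kuramochi, 3 and 1 in OVSAHO, 0 and 1 in OV-90 and 0 and 0 in EFO-21. The part of these shifts in the values of the 5 genes was not tested. Whole profiles of libraries of a group correlated at 0.97 to 0.99, except the parental OV-90 pair at 0.95.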

How the data were processed

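RNA sequencing was done on total RNA with a stranded, poly(A)-selected library kit, and 23 libraries of 4 lines were analysed (11 parental, 12 resistant). Reads were mapped by the authors to GRCh37/hg19 and counted over exons, repeat assays were pooled, and exons with few reads were dropped. Each deposited value is a gene's log2 expression, summarised by the authors from its exons (robust linear model for 16448 genes, mean of log2 values for 5210) and quantile normalized. The number of exons per gene, another deposited column, was used only to describe the genes. The strand setting of the counting is not given in the sources used here.

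The column headers give the line, the state and a library number (2 to 24) and lack the replicate, so libraries could be placed in groups only and are named here by these numbers. Parental libraries hold numbers 2 to 12 and resistant libraries 13 to 24. If the numbers follow the order of processing, an effect of that order cannot be told apart from resistance. Columns of other samples numbered 0. No read counts are given, so the depth is unknown and no counting error could be derived, and the only measure of precision is how far libraries of a group lie apart. That spread may be partly technical, since nothing beyond the label of biological replicate says how cultures were separated. Quantile normalization hides a shift common to most genes. Symbols came from a RefSeq gene table (20745 of 21658 genes) and positions from GENCODE lifted to GRCh37 (19358 genes).

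Each line was tested with limma 3.58.1 (R 4.3.3, eBayes with trend, two-sided, no pseudocount, no filter), with p-values adjusted by Benjamini-Hochberg over all 21658 genes, and called changed at an adjusted p under 0.05 and 2-fold. Levels between lines were tested within parental and within resistant libraries at an adjusted p under 0.05, and differences between lines in a limma interaction over 8 groups. The scripts were tested on simulated data. The 5 genes, the related lists and the markers were chosen with earlier results of these data known, and the lists are not independent evidence. Named with values were the 5 genes, their paralogues, up to 4 related genes a list with the largest change among those called, 5 genes most alike, neighbours called in at least 2 lines, and genes next to the 2-fold limit. One gene that this rule names is not reported here. HMOX1, NQO1, TXNRD1, PRDM1, RTN4, KCNAB3, DLG1, TREML1, EPCAM, MSLN, SERPINF2 and the overlapping genes were named after their values were seen. So were NGFR, ROCK2, SMYD4, SGSM2, MYO1C, PRPF8 and MINK1. Alternatives were no trend, a filter at the 25th percentile of mean, recentred libraries, a fit of all libraries, a 1.5-fold limit, medians, windows of 200 kb and 1000 kb, and each library left out. Leaving out libraries was extended to the calls in all 4 lines and to single related genes after seeing the data.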

Additional observations from a re-analysis of the deposited data

Results flagged for a closer look

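Among the related genes, 4 rose in 1 line and fell in another, and the test of the difference between lines passed for each (limma interaction over 23 libraries, adjusted over all genes). FLI1, a megakaryocyte transcription factor, fell by 1.97 in OV-90 and rose by 1.0 in Kuramochi (adjusted p of the difference = 8.87e-09), although the rise was lost without library 4, 5 or 16 and the fall without library 13, 14 or 15. PAX5, a B cell factor, rose by 4.17 in Kuramochi and fell by 1.51 in EFO-21 (adjusted p = 2.65e-05), and both calls were kept with each library left out. KCNA5, a potassium channel pore subunit, fell by 3.03 in Kuramochi and was listed at 0 in parental EFO-21 but at 3.49 ± 0.26 in resistant EFO-21 (SD, n = 3; adjusted p = 0.000338). KCNAB3, an accessory subunit of these channels, rose by 1.06 in OV-90, a call lost without library 2, 13, 14 or 15, and fell by 1.13 in EFO-21 (adjusted p = 5.91e-05). A difference between lines was common, at 75.1% of all genes.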

How the results depend on the processing

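The differences of the 5 genes kept their direction in all 155 alternatives and moved by less than the larger SD of the 2 groups compared, although 8 moved by more than the gene's pooled SD over all groups. Of the 155, 6, all for GP1BA in OVSAHO or BACH2 in Kuramochi, fell under 2-fold, among them the differences of medians (0.86 and 0.88). The filter at the 25th percentile kept 4 of the 5 genes and removed KCNA2. Genes at least 2-fold higher in all 4 lines numbered 121 at a 1.5-fold limit and 16 with the filter, instead of 29. The filter also left 2 lower related genes in Kuramochi, 1 in OVSAHO and 2 in EFO-21 and 1 higher in EFO-21, instead of 7, 3, 6 and 5, since fewer genes were tested, and a fit of all 23 libraries gave 2 lower in OV-90 instead of 1. With a library left out, higher related genes ranged from 0 to 17 in OV-90 and 0 to 2 in OVSAHO (0 without library 7, 2 without library 8 or 19), and lower ones from 0 to 7 in OV-90. With library 2 or 3 of OV-90 left out, the lone parental library was assumed to vary like the resistant ones. Of the calls, 0 of 10 in OV-90, 14 of 19 in Kuramochi, 2 of 4 in OVSAHO and 8 of 11 in EFO-21 were kept with every library left out. The share of neighbours that changed moved with the window. At 200 kb it was 4.35% lower in OV-90, 4.35% higher and 15.2% lower in Kuramochi, and at 1000 kb 4.14% lower in OV-90 and 4.83% higher in OVSAHO, against 2.13%, 12.8%, 9.57% and 3.19% within 500 kb. Of 918 alternatives for levels between lines, 890 kept the call, 21 lost it, 7 gained it and 0 reversed.

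No paired analysis was possible because the columns carry no replicate numbers, so the replicate block was not run. Depth is unknown, and values within the lowest 10% of a library, as for KCNA2 in Kuramochi, limit the folds drawn from them.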
